A study of Rattus norvegicus with 13 samples.

Results

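Gene expression in rat articular chondrocytes exposed to glucosamine and IL-1β together was compared with that in untreated chondrocytes, using 7 of the 13 arrays of the experiment. The members are the 4 arrays of cultures that received both agents (replicates a to d) and the 3 arrays of untreated cultures (replicates a to c), taken from the sample titles. The cells were taken from cartilage of the head of the femur of Wistar rats, males aged 2 months, were pooled at second passage and were seeded into flasks in complete DMEM, which all groups shared. Glucosamine was present at 20 mM for 20 hours, starting 6 hours before IL-1β, which was present at 10 ng/ml for the remaining 14 hours. Untreated flasks received neither agent. The other 6 arrays were 2 of glucosamine alone for 20 hours and 4 of IL-1β alone for 14 hours. They place the levels under both agents and also enter the same fit, so that they bear on the estimate of spread behind the p-values. The arrays are flasks of 1 pool of cells in monolayer, so that p-values measure the spread between flasks and not between animals, and the study describes both doses as above physiological levels.

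Chondrocytes are the cells of cartilage, where they lay down a matrix of type II collagen and the proteoglycan aggrecan. IL-1β, a cytokine of inflamed joints, acts through its receptor, the adaptor Myd88 and the transcription factor NF-κB, and is known to raise chemokines, matrix metalloproteinases, cyclooxygenase-2 and inducible nitric oxide synthase while lowering matrix genes. Glucosamine is an amino sugar that enters cells by glucose carriers, is phosphorylated by hexokinase and feeds the hexosamine pathway, which supplies UDP-N-acetylglucosamine for glycosaminoglycans, N-glycans and O-GlcNAc. The comparison asks which genes remained away from the untreated level when IL-1β acted on cells already holding glucosamine.

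A gene is represented by 1 probe set, and its signal is the deposited linear value, which is relative and has no scale shared between genes. Signals under 5.71, the 25th percentile of all values, were set to that floor before the log2 scale was taken, so that fold changes are ratios of geometric means, which can exceed a ratio of arithmetic means, and those against a group with an array at the floor are lower bounds of the geometric ratio. A gene was called where limma, fitted across 29263 probe sets, gave a p under 0.05 after Benjamini-Hochberg adjustment. Of 13748 genes tested, 2286 (16.6%) rose and 2024 (14.7%) fell under both agents, 31.4% in all, and 553 of the former and 851 of the latter changed at least 2-fold. These 2 shares are the ones to set beside each list count against untreated cultures below. Among all 29263 probe sets, 3369 (11.5%) rose and 3617 (12.4%) fell, 23.9% in all. The median log2 fold change over all probe sets was 0.13, and it was 0 when replicate d of the combination was left out and 0.04 after quantile normalization. The lowest values of that array lay apart, its 1st percentile of signal being -36.8 and those of the other 3 arrays of the group -6.47 to -5.69. Replicate d of IL-1β alone had a 1st percentile of -31.0, and over probe sets its log2 signals correlated with those of replicate d of the combination at 0.928, whereas the latter correlated with its own group at 0.880 to 0.884. Without replicate d of the combination 2580 genes (18.9%) rose and 2078 (15.2%) fell, and 4058 genes kept their call. The median coefficient of variation of signals over 100 was 3.82% between untreated arrays and 10.5% between arrays under both agents, or 7.09% without replicate d. Bulk arrays cannot tell fewer cells of a type from less RNA per cell.

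**Figure D1:**
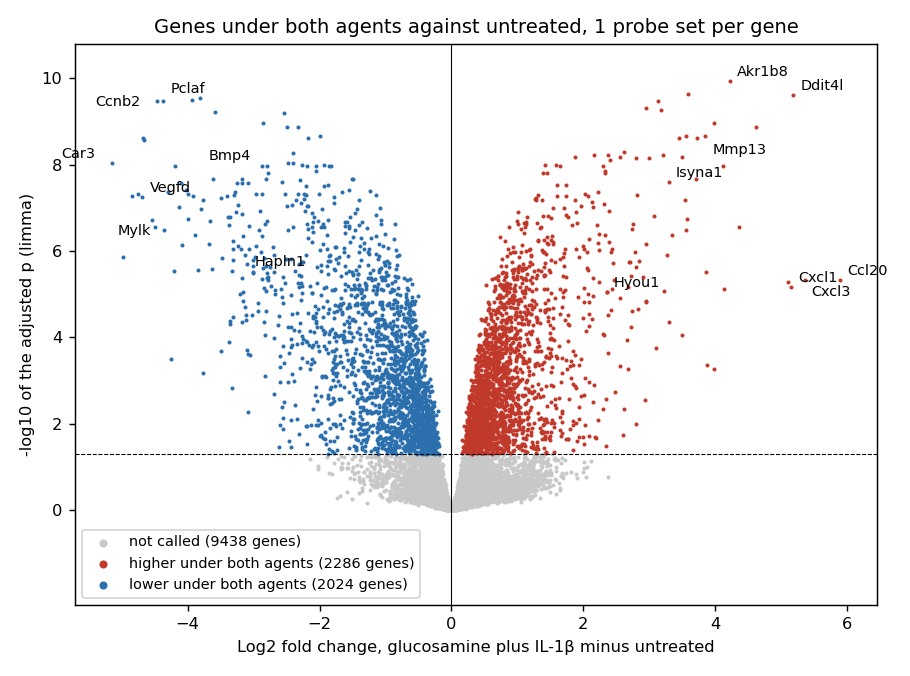
Each point is 1 gene, with the log2 fold change of both agents over untreated cultures on the horizontal axis and -log10 of the adjusted p from limma on the vertical axis, and the dashed line marks an adjusted p of 0.05. Ccl20, Cxcl3, Ddit4l and Cxcl1 lie farthest to the right, with log2 fold changes of 5.90, 5.35, 5.18 and 5.15, and Ccnb2 and Pclaf are far to the left with an adjusted p of 3.3e-10 each.

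By the representative probe set of each gene the largest rise was that of Ccl20, a chemokine that draws lymphocytes and dendritic cells through CCR6. Its signals were 25.2, 28.6 and 26.9 on the untreated arrays and 1370.0, 1614, 1663 and 1792 under both agents, a 59.6-fold rise (log2 fold change 5.90 ± 0.50 SE, adjusted p = 4.7e-06). Cxcl3 and Cxcl1, ligands of the neutrophil receptor CXCR2, rose 40.9-fold and 35.5-fold. Of 4 other probe sets of Cxcl3, 2 rose further (log2 fold changes 7.17 and 7.05) and 2 were not called. Cxcl2, of the same family, went from signals at or under the floor to 74.5, 69.9, 118 and 107, which is at least 15.8-fold higher. Ddit4l, an inhibitor of mTORC1 signalling, gave 12.7, 14.8 and 10.4 on the untreated arrays and 441, 509, 442 and 425 under both agents and rose 36.3-fold (log2 fold change 5.18 ± 0.11 SE, adjusted p = 2.4e-10). In each of these 5 genes all 4 arrays under both agents lay above all 3 untreated arrays.

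Of the other 7 genes among the 12 largest rises, Ass1, which makes argininosuccinate and so recycles citrulline to arginine for nitric oxide synthesis, gave 0.773, 8.87 and 9.22 on the untreated arrays and 262, 271, 307 and 229 under both agents, and was at least 34.2-fold higher (adjusted p = 5.2e-06). Serpinb2, the plasminogen activator inhibitor 2, rose 24.4-fold, the monocyte chemokine Ccl7 20.5-fold and the aldo-keto reductase Akr1b8 18.6-fold. Akr1b8 had the smallest adjusted p of these 4 genes (adjusted p = 1.2e-10 from limma), with signals of 105, 122 and 111 on the untreated arrays and 2063, 2307, 1967 and 2054 under both agents. Itga3, the integrin α3 chain, rose 17.5-fold, the chromatin protein Hmga1 17.3-fold and Mreg, which acts in organelle transport, 15.7-fold. For Itga3 the 4 arrays spread from 118 to 346, with replicate d the lowest, and the highest untreated signal was 17.8.

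Most of the largest falls ended near the floor. Car3, a cytosolic carbonic anhydrase, gave 220.4, 193 and 198 on the untreated arrays and -4.67, 1.62, -2.03 and -3.58 under both agents, a fall of at least 35.6-fold (adjusted p = 9.1e-09). All 4 arrays under both agents were below the floor. Dync1i1, a dynein intermediate chain, fell at least 31.4-fold, Tril, an accessory protein of Toll-like receptors, at least 28.8-fold, and Vegfd, a growth factor for lymphatic vessels, at least 25.7-fold. Selenbp1, a selenium-binding methanethiol oxidase, fell 25.6-fold, with signals of 328, 301 and 337 on the untreated arrays and 10.7, 11.2, 13.1 and 15.99 under both agents, none of which were at the floor. Hpgd, which inactivates prostaglandins, fell 23.2-fold with 1 of 4 arrays at the floor, and Mylk, the myosin light chain kinase, at least 20.4-fold. The remaining 5 of the 12, Ccna2, Cdca3, Ube2c, Ccnb2 and Pclaf, are genes of the cell cycle.

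Genes of mitosis fell as a group. Of 44 tested genes 41 fell, 0 rose and 3 were not called, with a median log2 fold change of -2.88, against 0.13 over all genes. Ccnb2, the cyclin B2 that activates Cdk1, gave 497, 562 and 535 on the untreated arrays and 28.4, 22.03, 22.1 and 24.2 under both agents. The groups were far apart and each was tight, and the fall was 22.1-fold (log2 fold change -4.46 ± 0.10 SE, adjusted p = 3.3e-10). Ccna2, cyclin A2, fell 26.9-fold, Cdca3, which brings the ubiquitin ligase SCF to Wee1, 25.2-fold, and Ube2c, the E2 enzyme of the anaphase-promoting complex, 22.5-fold. Ccnb1 fell 12.3-fold, Mki67, the proliferation marker Ki-67, 9.39-fold, Cdk1 7.08-fold and Top2a, the topoisomerase that untangles chromosomes, 7.02-fold. The 3 genes not called were Cenpa (log2 fold change -0.49), Cdc25b (-0.24) and Incenp (0.08).

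Replication genes fell too, by a smaller median. Of 38 tested genes of DNA replication and S phase 28 fell, 0 rose and 10 were not called (median log2 fold change -1.09). Pclaf, a partner of the sliding clamp PCNA, gave 383, 360.2 and 378 on the untreated arrays and 17.4, 18.6, 16.4 and 20.1 under both agents, a fall of 20.7-fold (log2 fold change -4.37 ± 0.10 SE, adjusted p = 3.3e-10). Tk1, thymidine kinase, fell 19.1-fold in geometric means (log2 fold change -4.26, and -4.97 without replicate d), with signals of 5.43, 10.2, 11.3 and 63.8 under both agents against 254, 279.6 and 289. Replicate d was the highest of these and replicate a was under the floor, and the group still lay wholly below the untreated arrays. Mcm5, a subunit of the replicative helicase, fell 8.40-fold, and Uhrf1, which carries DNA methylation through replication, 4.42-fold. Pcna itself (log2 fold change -0.15), Fen1 (-0.16) and Gmnn (0.15) were not called.

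The 2 single-agent groups share the untreated arrays with the combination, so their values are given side by side. Genes of mitosis had a median log2 fold change over untreated cultures of -3.03 under glucosamine alone and -0.01 under IL-1β alone. Ccnb2 averaged 20.6 with glucosamine, 358 with IL-1β and 24.2 with both. Tested directly, 42 of the 44 mitosis genes were lower under both agents than under IL-1β alone, where 14.8% of all genes were lower, and 0 were lower and 2 higher than under glucosamine alone, where 1.13% of all genes were lower and 1.45% higher. For replication 34 of 38 were lower than under IL-1β alone, and 0 lower and 0 higher than under glucosamine alone.

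Of 24 G1 regulators 4 rose and 8 fell, where 16.6% and 14.7% of all genes did. Gadd45g fell 6.05-fold and Gadd45b 5.23-fold, both stress proteins, while Gadd45a of the same family rose 2.50-fold. The CDK4 and CDK6 inhibitors Cdkn2c and Cdkn2a fell 3.06-fold and 2.78-fold. Cdkn1a, the p21 inhibitor, was not called (log2 fold change 0.14).

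The promoters of cell cycle genes shown are of called list members that hold the marked letters in the 150 bases, taken from the largest changes. The presence of the letters in them was thus set by the choice. Sequences are from RefSeq on build GRCr8, read in the sense of the gene, and each line holds the 150 bases before the gene start. Capitals mark the letters TTTGAA, the core of the cell cycle homology region (CHR), in Ccnb2 at chr8:79981659-79981808 (minus strand), and TTTCCCGC or TTTGGCGC on either strand, which E2F factors are known to bind, in Pclaf at chr8:75315567-75315716 (plus strand) and Mcm5 at chr19:13488663-13488812 (plus strand).
Ccnb2: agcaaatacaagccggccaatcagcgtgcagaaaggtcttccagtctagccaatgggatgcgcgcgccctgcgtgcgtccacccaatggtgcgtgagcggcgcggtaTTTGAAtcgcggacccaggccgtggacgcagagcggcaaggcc
Pclaf: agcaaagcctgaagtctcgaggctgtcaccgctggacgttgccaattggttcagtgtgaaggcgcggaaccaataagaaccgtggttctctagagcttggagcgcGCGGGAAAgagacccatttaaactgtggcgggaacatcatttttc
Mcm5: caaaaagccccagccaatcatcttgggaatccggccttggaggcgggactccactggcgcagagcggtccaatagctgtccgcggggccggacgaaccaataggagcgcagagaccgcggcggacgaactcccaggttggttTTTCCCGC
In Pclaf the capitals are the reverse complement of TTTCCCGC. Windows of 300 bases, 250 before and 50 after the start, were at hand for 11360 of the tested genes. TTTGAA on either strand stood in 27 of 38 mitosis windows (71.1%) and in 12.2% of all tested genes, and the E2F letters in 12 of 33 replication windows (36.4%) and in 2.64% of all. CCAAT, which occurs on 1 strand or the other in all 3 stretches, was in 78.9% of mitosis windows and 37.4% of all. These are matches of letters, with no measure of binding.

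Genes of the unfolded protein response, by which cells enlarge the folding capacity of the endoplasmic reticulum, rose: 23 of 27 tested were higher, 0 lower and 4 not called (median log2 fold change 0.95). Hyou1, an ER chaperone of the HSP70 family, gave 214, 176 and 186 on the untreated arrays and 1215, 983, 1079.7 and 709.6 under both agents, a rise of 5.11-fold (log2 fold change 2.35 ± 0.22 SE, adjusted p = 9.0e-06). Creld2, an ER protein released under stress, gave 426, 467 and 454 on the untreated arrays and 2172, 2398, 1999 and 2328 under both agents and rose 4.95-fold (log2 fold change 2.31 ± 0.09 SE, adjusted p = 1.0e-08). The groups were separate in both genes. Sdf2l1, which works with ER chaperones, rose 4.49-fold, the disulfide isomerase Pdia4 4.24-fold, and Ddit3 (CHOP), a transcription factor of prolonged ER stress, 3.99-fold. Hspa5 (BiP), the master ER chaperone, rose 1.88-fold, with signals of 2137, 2362 and 2439.7 on the untreated arrays and 4237, 4848, 3716 and 4622 under both agents. Xbp1 (log2 fold change 0.20) and Atf6 (0.38), factors that drive the response, were not called.

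The list's median was 1.05 under glucosamine alone and 0.11 under IL-1β alone. Hyou1 averaged 972, 232 and 997 with glucosamine, IL-1β and both. Under both agents 24 of 27 genes were higher than under IL-1β alone, where 15.8% of all genes were, and 0 were higher and 0 lower than under glucosamine alone.

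In promoters of this list capitals mark the ER stress response element (ERSE), CCAAT and CCACG with 9 bases between, in Creld2 at chr7:121789234-121789383 (plus strand), where it lies on the opposite strand, and in Dnajc3, a co-chaperone that rose 3.28-fold, at chr15:102432517-102432666 (plus strand).
Creld2: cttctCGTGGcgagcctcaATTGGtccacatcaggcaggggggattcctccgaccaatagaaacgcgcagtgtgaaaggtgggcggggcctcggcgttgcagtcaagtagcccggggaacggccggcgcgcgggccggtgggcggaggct
Dnajc3: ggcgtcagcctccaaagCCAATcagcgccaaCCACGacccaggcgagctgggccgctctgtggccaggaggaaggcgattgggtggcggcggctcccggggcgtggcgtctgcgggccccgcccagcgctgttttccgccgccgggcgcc
Both promoters were chosen among called members of the list that hold the element. The full element stood in 7 of 22 windows of the list (31.8%) and in 17 of 11360 windows of tested genes (0.150%). It stood in 0.417% of windows of genes called higher and 0.0597% of those called lower.

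The ATF4 list holds amino acid transporters, synthetic enzymes and tRNA synthetases. Of its 36 genes 17 rose (47.2%), 5 fell (13.9%) and 14 were not called, where 16.6% and 14.7% of all genes rose and fell. Atf3, a stress-induced repressor of transcription, gave 26.2, 28.8 and 28.3 on the untreated arrays and 301, 347, 279 and 383 under both agents, a rise of 11.7-fold (adjusted p = 6.5e-08). Gdf15, a stress cytokine of the TGF-β family, rose at least 11.3-fold, but with arrays between 36.1 and 149. Slc3a2, the heavy chain shared by several amino acid carriers, rose 2.63-fold. Asns, asparagine synthetase, was not called (log2 fold change 0.12), and Cth, which makes cysteine from cystathionine, fell 2.67-fold.

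Of 33 tested targets of NRF2 and genes of glutathione metabolism 18 rose and 3 fell (median log2 fold change 0.40). Nqo1, a quinone reductase, gave 542, 572 and 559 on the untreated arrays and 2168, 2499, 1966 and 2525 under both agents and rose 4.09-fold (log2 fold change 2.03 ± 0.10 SE, adjusted p = 4.7e-08). Srxn1, sulfiredoxin, rose 4.45-fold and Hmox1, which degrades haem, 2.90-fold. Ephx1, an epoxide hydrolase, fell 3.44-fold. The list's median was 0.47 with glucosamine and 0.44 with IL-1β alone, and Akr1b8 averaged 2067 with glucosamine, 2709 with IL-1β and 2098 with both.

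Enzymes that handle hexosamines and build N-glycans rose in 17 of 31 cases (54.8%) and fell in 4 (12.9%), where 16.6% and 14.7% of all genes did. Gfpt2, an isoform of the enzyme that makes glucosamine 6-phosphate from fructose 6-phosphate, gave 96.00, 89.1 and 89.9 on the untreated arrays and 717, 863, 823 and 998 under both agents, a rise of 9.21-fold (log2 fold change 3.20 ± 0.11 SE, adjusted p = 5.9e-09). Its mean was 196 with glucosamine alone and 1245 with IL-1β alone. Gnpda1, which turns glucosamine 6-phosphate back to fructose 6-phosphate, rose 2.23-fold, and Amdhd2, a deacetylase of N-acetylglucosamine 6-phosphate, 2.89-fold. Hexokinase 2 (Hk2) rose 3.10-fold. Alg8, a glucosyltransferase of the N-glycan precursor, fell 2.99-fold, with signals of 201, 228 and 201 on the untreated arrays and 73.5, 69.9, 68.9 and 68.1 under both agents.

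Osmolyte genes gave 6 rises (40%) and 2 falls (13.3%) among 15, against 16.6% and 14.7% of all genes. Isyna1, which makes inositol phosphate from glucose 6-phosphate, gave 41.5, 38.6 and 39.1 on the untreated arrays and 436, 371, 447 and 318 under both agents, a rise of 9.80-fold (log2 fold change 3.29 ± 0.14 SE, adjusted p = 2.5e-08). Slc5a3, the sodium-coupled inositol transporter, rose 4.68-fold, the kinase Sgk1 2.45-fold and the glucose carrier Slc2a1 (GLUT1) 2.22-fold. Nfat5, the factor that senses hypertonicity, was not called, nor was the amino acid carrier Slc38a2 (log2 fold change 0.18).

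Of 27 stress genes and brakes on growth signalling 7 rose and 4 fell, where 16.6% and 14.7% of all genes did. Arrdc4, an α-arrestin that restrains glucose uptake, gave 24.9, 18.4 and 21.5 on the untreated arrays and 195, 198, 211 and 224 under both agents and rose 9.65-fold (log2 fold change 3.27 ± 0.23 SE, adjusted p = 1.2e-06). Txnip, of the same family and an inhibitor of thioredoxin, gave 572, 487 and 523 on the untreated arrays and 1910.3, 2172, 1812 and 1954 under both agents, a rise of 3.72-fold (adjusted p = 0.0015). IL-1β alone gave Txnip signals of 18.9, 51.8, 19.9 and 55.8, so that the level with both agents was 60.6-fold higher than with IL-1β alone (adjusted p = 1.2e-07). Trim63, a muscle ubiquitin ligase, rose 5.35-fold and Pik3ip1, an inhibitor of PI3 kinase, fell 6.55-fold.

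**Figure D2:**
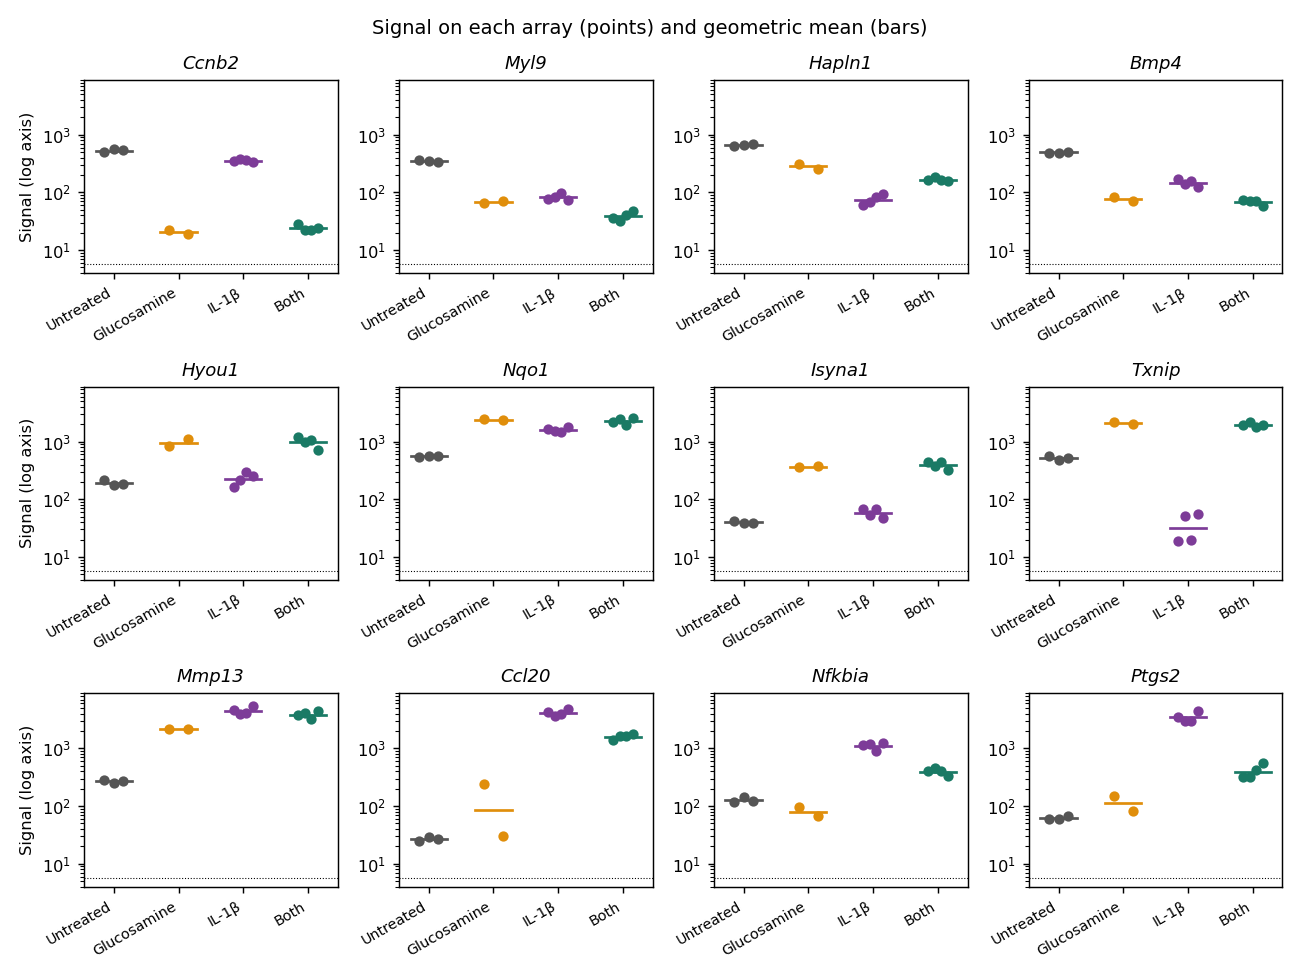
Each panel is 1 gene, each point 1 array and each bar the geometric mean of a group, with signal on a log axis and the floor of 5.71 as a dotted line. Ccnb2, Hyou1, Isyna1 and Bmp4 lie under both agents near their level under glucosamine alone, while Ccl20, Nfkbia and Ptgs2 lie between the untreated level and that under IL-1β alone.

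Components and feedback targets of NF-κB remained raised. Of 23 tested 16 rose, 1 fell and 6 were not called (median log2 fold change 1.13). Nfkbiz, a nuclear IκB that NF-κB induces, gave 79.7, 75.8 and 82.4 on the untreated arrays and 753, 695, 704 and 723 under both agents, a rise of 9.06-fold (log2 fold change 3.18 ± 0.08 SE, adjusted p = 5.3e-10). Zc3h12a, a ribonuclease that destroys cytokine mRNA, rose 5.01-fold, the apoptosis inhibitor Birc3 3.70-fold and the early response gene Ier3 3.33-fold. Nfkbia, the inhibitor IκBα and an immediate target of NF-κB, gave 117, 143 and 120.3 on the untreated arrays and 402, 459, 401 and 334 under both agents and rose 3.14-fold (log2 fold change 1.65 ± 0.15 SE, adjusted p = 7.5e-06). The adhesion molecules Icam1 (log2 fold change 0.18) and Vcam1 (-0.44) were not called, and Tnfaip6, a hyaluronan-binding protein, fell 1.70-fold.

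With both agents the list's median lay between those with either agent. The list's median log2 fold change over untreated cultures was 2.41 with IL-1β alone, 1.13 with both and -0.17 with glucosamine alone. Under both agents 19 of 23 genes were lower than under IL-1β alone, where 14.8% of all genes were. Against glucosamine alone 14 were higher, where 1.45% of all genes were. Nfkbia averaged 1108, 399 and 81.7 in the same order, and the level under both agents differed from that under IL-1β (adjusted p = 1.1e-05) and from that under glucosamine (adjusted p = 2.4e-05).

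Chemokines differed among themselves. Of 20 tested 9 rose, 2 fell and 9 were not called. Ccl2, which recruits monocytes, gave 217, 223 and 224 on the untreated arrays and 2786, 3088, 2651 and 3256 under both agents and rose 13.3-fold (log2 fold change 3.73 ± 0.12 SE, adjusted p = 2.4e-09). At the other extreme Ccl3, a chemokine that draws macrophages, gave -6.76, -3.58 and -5.44 on the untreated arrays and -2.37, 0.0427, -0.0645 and 12.7 under both agents. Only replicate d passed the floor, and no fold can be given, although the mean with IL-1β alone was 691. Ccl5, which draws T cells, gave 8.54, 7.38, 8.17 and 8.18 against 1.01, 2.42 and 2.86, which do not overlap, but was not called (log2 fold change 0.50, 95% confidence interval 0.06 to 0.94). Cxcl12, a chemokine that resting connective tissue cells make, fell 19.7-fold with signals of 407, 350.5 and 410.0 on the untreated arrays and 14.1, 17.01, 23.3 and 26.97 under both agents. IL-1β alone left Cxcl12 at a mean of 326 and glucosamine alone at 17.2.

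The 9 chemokines that rose are Ccl2, Ccl7, Ccl20, Cxcl1, Cxcl2, Cxcl3, Cxcl6, Cxcl16 and Cx3cl1. The list's median was 4.00 with IL-1β alone and 0.52 with both, and 15 of 20 were lower than with IL-1β alone, where 14.8% of all genes were. Ccl20 averaged 4206 with IL-1β and 1609.7 with both, a log2 difference of -1.38. It was not called (adjusted p = 0.052 from limma), although the arrays of these groups did not overlap. The 2 arrays of glucosamine alone gave 246 and 29.7 for this gene, which are far apart. Cxcl1 averaged 4210.2 and 2546 and was not called (adjusted p = 0.31 from limma), although its arrays, at 3533 to 5107 and 2306 to 2788, did not overlap. The fit shares 1 estimate of the spread over all groups, and the arrays of glucosamine alone gave 523 and 76.0 for Cxcl1. Ccl7, at 3076 and 663, was 4.61-fold lower with both agents (adjusted p = 3.9e-05).

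Promoters of 2 induced genes are shown with capitals on the letters GGGANTTTC (N is any base), which NF-κB dimers are known to bind, on either strand, in Nfkbia at chr6:78597073-78597222 (minus strand) and Cxcl1 at chr14:17479322-17479471 (minus strand).
Nfkbia: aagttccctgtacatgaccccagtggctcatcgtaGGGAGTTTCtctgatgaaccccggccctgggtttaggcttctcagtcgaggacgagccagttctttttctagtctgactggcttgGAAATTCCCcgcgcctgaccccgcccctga
Cxcl1: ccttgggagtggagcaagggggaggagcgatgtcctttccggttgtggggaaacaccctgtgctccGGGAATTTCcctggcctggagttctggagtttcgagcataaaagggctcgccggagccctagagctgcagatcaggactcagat
Nfkbia held 2 matches within its 150 bases and Cxcl1 held 1, and both were chosen among called list members with a match. The letters stood in 5 of 18 windows of the NF-κB list (27.8%), 3 of 14 chemokine windows (21.4%) and 1.18% of all tested genes. They stood in 1.98% of windows of genes called higher and 0.895% of those called lower.

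**Figure D3:**
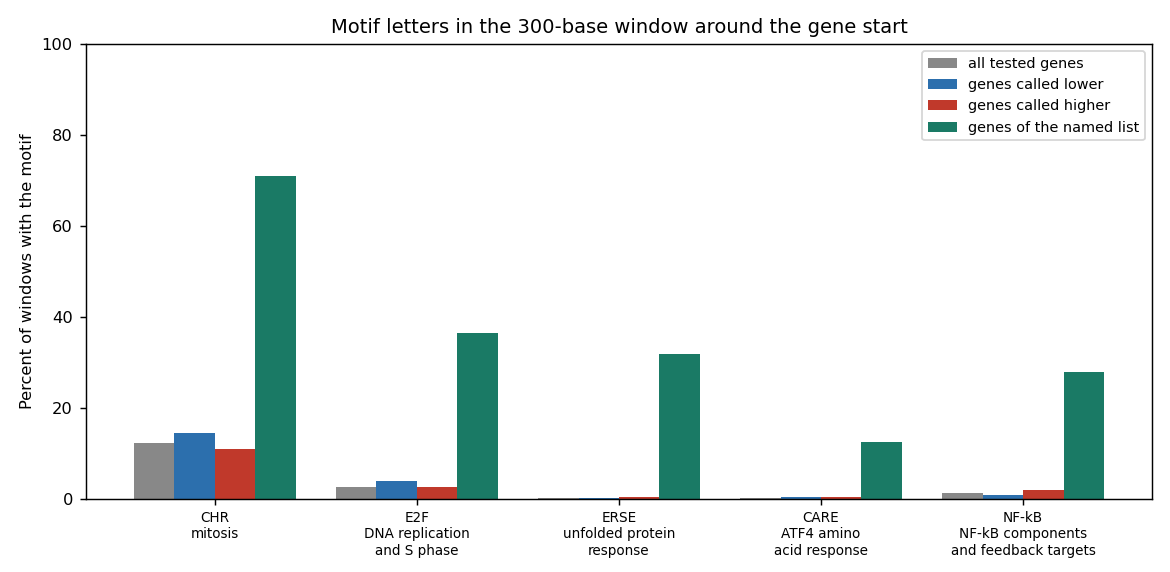
Bars give the percent of 300-base promoter windows that hold each motif, for all tested genes, genes called lower, genes called higher and the genes of the list named under each motif. The list bars are the highest in every case, at 71.1% for the CHR in mitosis genes and 12.5% for the ATF4 element TGATGCAAT (CARE) in the ATF4 list.

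Among cytokines and growth factors 6 of 22 rose, 3 fell and 13 were not called, where 16.6% of all genes rose and 14.7% fell. Il6 gave 57.2, 58.5 and 56.2 on the untreated arrays and 156, 159.7, 197 and 123 under both agents, a rise of 2.74-fold (log2 fold change 1.45 ± 0.15 SE, adjusted p = 2.2e-05), while its mean with IL-1β alone was 1718. Ereg, a ligand of the EGF receptor, rose 6.68-fold with 1 untreated array at the floor. Csf2 (GM-CSF) gave -0.928, 0.220 and -2.18 on the untreated arrays and 11.7, 14.8, 26.6 and 17.1 under both agents and was called by a narrow margin (adjusted p = 0.046), and it was not called without replicate b, c or d of the combination or without any 1 of the untreated arrays. Il33, an alarmin of barrier and connective tissue cells, fell 10.03-fold in geometric means with 1 of 4 arrays at the floor.

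Several cytokines with high signals under IL-1β alone were at or close to the floor under both agents. Il23a, a subunit of IL-23, gave -27.4, -31.2 and -28.9 on the untreated arrays and -18.7, -17.05, -9.62 and -15.2 under both agents, all below it, against a mean of 767 with IL-1β alone. Il1a and Il1b passed the floor on 1 array each, replicate d, at 2.09, 2.86, 2.53 and 10.4 and 0.334, 2.76, 1.45 and 5.96, and their means with IL-1β alone were 175 and 119. Csf3 (G-CSF), with -0.304, 1.18 and -1.88 on the untreated arrays and 8.51, 1.41, 9.11 and 6.79 under both agents, was not called (log2 fold change 0.37, 95% confidence interval -0.21 to 0.96), and its mean with IL-1β alone was 1254.

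**Figure D4:**
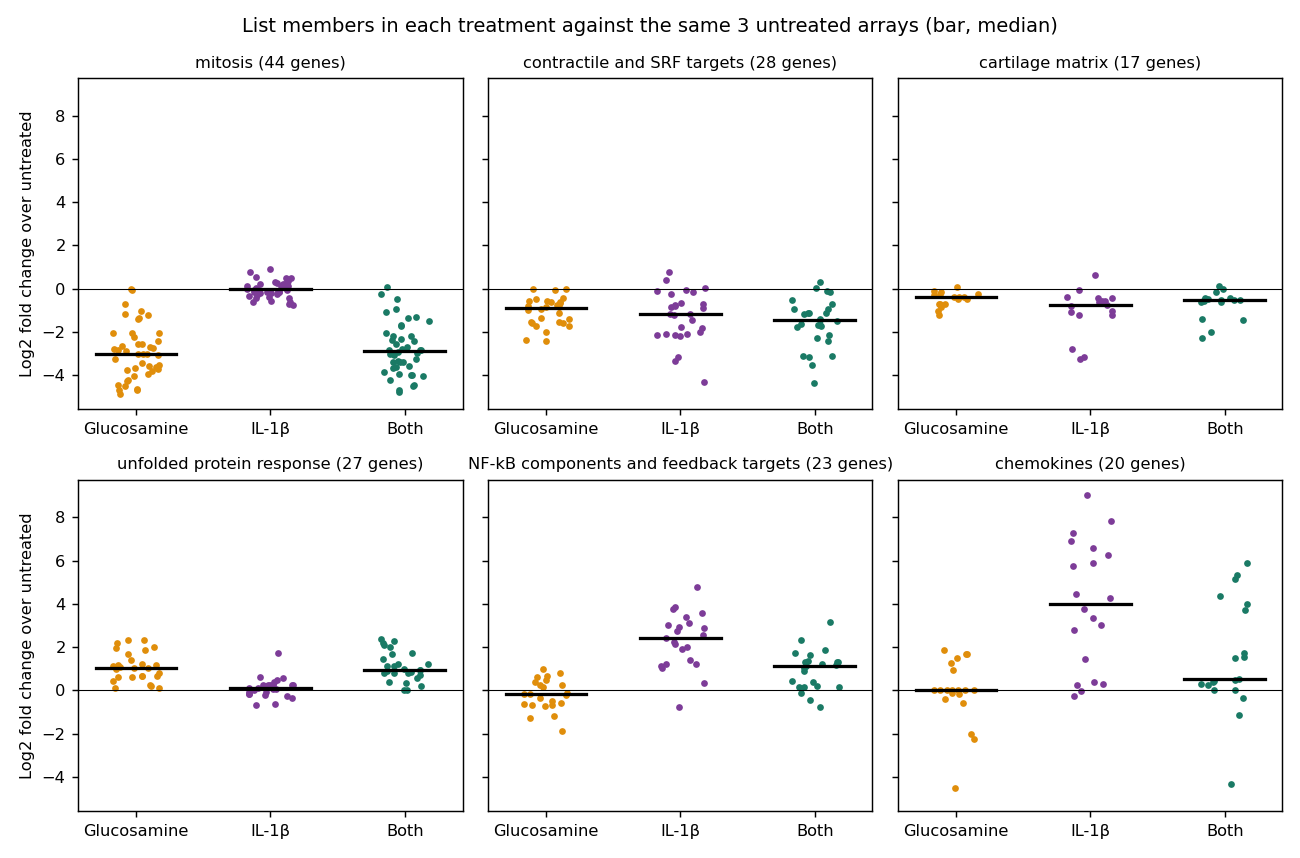
Each point is 1 gene of a list and each bar the list's median, as log2 fold change over the same 3 untreated arrays with glucosamine, IL-1β or both. Mitosis and unfolded protein response genes have medians of -2.88 and 0.95 with both agents, near those with glucosamine alone, and chemokines spread from -4.30 (Cxcl12) to 5.90 (Ccl20).

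Of 29 matrix proteases and their inhibitors 18 rose and 3 fell (median log2 fold change 0.59). Mmp13, collagenase 3, which cuts type II collagen, gave 282, 248 and 275 on the untreated arrays and 3788, 4037, 3284 and 4375 under both agents, a rise of 14.4-fold (log2 fold change 3.84 ± 0.12 SE, adjusted p = 2.2e-09). Mmp3, stromelysin 1, gave 804, 945 and 935 on the untreated arrays and 4047, 4576, 3476 and 4796 under both agents and rose 4.70-fold (log2 fold change 2.23 ± 0.14 SE, adjusted p = 4.0e-07). Arrays of the 2 groups did not approach each other in either gene. Mmp12, macrophage elastase, rose at least 14.6-fold, Mmp10, stromelysin 2, at least 6.88-fold and Mmp9, gelatinase B, at least 6.31-fold. Mmp2, gelatinase A, rose 1.86-fold and the tissue inhibitors Timp1 and Timp3 1.29-fold and 1.41-fold.

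Of 3 aggrecanases and related proteases 1 was called. Adamts4 gave 69.2, 70.00 and 71.9 on the untreated arrays and 95.5, 91.5, 92.2 and 98.9 under both agents, a rise of 1.34-fold (adjusted p = 4.7e-04). Adamts5 gave 1160.3, 1225 and 1322 on the untreated arrays and 1113, 1305, 1026 and 1385 under both agents, which overlap, and was not called (log2 fold change -0.04, 95% confidence interval -0.32 to 0.23). Adamts1 was not called (log2 fold change -0.36, 95% confidence interval -0.66 to -0.06), but fell without replicate d, which at 459.5 was the highest of the 4 arrays under both agents.

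Against single agents, Mmp13 averaged 2127 with glucosamine, 4497 with IL-1β and 3871 with both. The last 2 were not called different (log2 difference -0.21, adjusted p = 0.22), and the level with both agents was 1.81-fold above that with glucosamine (adjusted p = 0.0054). Mmp9 averaged 2194 with IL-1β and 36.5 with both, and was 60.5-fold lower with both (adjusted p = 1.2e-07). Mmp12 averaged 1132 and 84.9 and was 13.3-fold lower (adjusted p = 2.2e-06). Of the list's 29 genes 14 were lower and 3 higher with both agents than with IL-1β alone, where 14.8% and 15.8% of all genes were. When replicate d of both groups was left out, 14 were lower and 7 higher.

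Prostaglandin and nitric oxide genes gave 12 rises and 1 fall among 22. Ptgs2, cyclooxygenase-2, gave 59.2, 59.99 and 66.5 on the untreated arrays and 321, 319, 427 and 555 under both agents, a rise of 6.38-fold (log2 fold change 2.67 ± 0.24 SE, adjusted p = 6.9e-06). Ptges, the inducible prostaglandin E synthase, rose 5.59-fold and Ptgs1, the constitutive cyclooxygenase, 2.67-fold. The fall was that of the degrading enzyme Hpgd. With IL-1β alone the means were 3494 for Ptgs2, 3846 for Ptges and 192 for Ptgs1, so that the first was 8.73-fold lower and the last 2.56-fold higher with both agents. Nos2, the inducible nitric oxide synthase, has 1 probe set of its own, which was under the floor on every array, and another that the annotation shares with a pseudogene and that was therefore not assigned to either gene.

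Among receptors and their regulators 11 of 27 rose (40.7%) and 5 fell (18.5%), where 16.6% and 14.7% of all genes did. Il13ra2, a decoy receptor for IL-13, gave 1.76, 2.52 and 2.86 on the untreated arrays and 55.3, 72.6, 56.8 and 90.8 under both agents and rose at least 11.8-fold (adjusted p = 3.3e-07). Tlr2, a receptor of bacterial lipopeptides, gave 105, 106 and 106 on the untreated arrays and 786, 846, 816 and 918 under both agents, a rise of 7.96-fold (log2 fold change 2.99 ± 0.11 SE, adjusted p = 7.1e-09). Tnfrsf9 (4-1BB) rose 6.61-fold. Il1r1, the signalling receptor of IL-1, fell 1.99-fold and Il1rl1, the receptor of IL-33, 2.28-fold. Myd88 was not called (log2 fold change 0.06).

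Cartilage matrix genes fell or were not called. Of 17 tested 12 fell and 5 were not called (median log2 fold change -0.54). Omd, the small proteoglycan osteomodulin, gave 838, 815 and 895 on the untreated arrays and 170.4, 191, 169 and 165 under both agents and fell 4.89-fold (log2 fold change -2.29 ± 0.10 SE, adjusted p = 2.3e-08). Hapln1, the link protein that fixes aggrecan to hyaluronan, gave 643, 657 and 686 on the untreated arrays and 163, 186, 161 and 156 under both agents, a fall of 3.98-fold (log2 fold change -1.99 ± 0.14 SE, adjusted p = 9.3e-07). Col9a1, a chain of the type IX collagen that decorates type II fibrils, fell 2.60-fold, with signals of 1710.1, 1686 and 1896 on the untreated arrays and 698, 753, 685 and 589 under both agents. The groups were separate in all 3.

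Of the other cartilage genes named here, all but Matn2 fell by smaller factors at their representative probe sets. Col2a1, the type II collagen chain, gave 3473, 3817 and 4165 on the untreated arrays and 3074, 3005, 2657 and 2578 under both agents, a fall of 1.35-fold (log2 fold change -0.43 ± 0.10 SE, adjusted p = 0.009). Acan, aggrecan, gave 253, 226 and 242 on the untreated arrays and 193, 159, 189 and 129 under both agents and fell 1.45-fold (adjusted p = 0.021). Comp fell 1.51-fold, Col11a1 1.37-fold and the adaptor protein Matn2 2.74-fold, with 1 of 4 arrays at the floor. The call of Matn2 was lost without any 1 array of the groups other than replicate b of the combination. Of Col2a1 2 other probe sets fell further (log2 fold changes -1.39 and -2.46). The representative of Col2a1 was not called without untreated replicate c, and Acan was not called without untreated replicate a or c or without replicate b of the combination. Another probe set of Acan was not called, and of 2 others of Col11a1 1 fell and 1 was not called. Acan averaged 35.1 with IL-1β alone and 259.7 with glucosamine alone, and with both agents it was 4.73-fold above the former (adjusted p = 3.9e-07). Hapln1 averaged 75.9 and 284 in the same order.

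Of 28 other matrix genes 17 fell, 2 rose and 9 were not called. Col14a1, a fibril-associated collagen, fell 5.27-fold, Col8a1, a network-forming collagen, 4.94-fold, the microfibril protein Mfap2 3.67-fold and elastin (Eln) 3.35-fold. Spp1, osteopontin, and Dcn, decorin, were the 2 that rose. Col1a1, the type I collagen chain, gave 3300.3, 3547 and 3918 on the untreated arrays and 4353, 3951, 3446 and 3286 under both agents, which overlap, and was not called (log2 fold change 0.06, 95% confidence interval -0.20 to 0.33). Another probe set of Col1a1 fell (log2 fold change -0.95, adjusted p = 2.4e-05). Col3a1 was called (adjusted p = 0.033), but not without untreated replicate b or c or without replicate b, c or d of the combination.

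Regulators of the cartilage cell fell in 5 of 15 cases and rose in 0, where 14.7% and 16.6% of all genes did. Fgfr3, the FGF receptor of growth plate cartilage, fell 4.09-fold, the homeobox genes Msx1 and Dlx5 2.77-fold and 2.62-fold, Pth1r, the parathyroid hormone receptor, 2.48-fold and Sox6, a partner of Sox9, 2.47-fold. Sox9 itself has no probe set of its own here. Genes of glycosaminoglycan synthesis were split, 7 of 29 higher and 9 lower, against 16.6% and 14.7% of all genes. Cd44, the hyaluronan receptor, gave 346, 335 and 334 on the untreated arrays and 1528, 1642, 1529 and 1269.9 under both agents and rose 4.39-fold (log2 fold change 2.14 ± 0.11 SE, adjusted p = 7.3e-08). Has2, the main hyaluronan synthase of cartilage, fell 4.80-fold, the heparan sulfotransferase Hs6st1 2.78-fold, and Chst12, a chondroitin sulfotransferase, rose 2.87-fold.

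Contractile genes and targets of serum response factor fell in 23 of 28 cases, with 1 rise (Ccn3, log2 fold change 0.29) and a median log2 fold change of -1.47. Myl9, a myosin regulatory light chain, gave 370.4, 351 and 338 on the untreated arrays and 36.6, 31.8, 41.2 and 48.5 under both agents, a fall of 9.04-fold (log2 fold change -3.18 ± 0.14 SE, adjusted p = 2.7e-08). Myh11, the smooth muscle myosin heavy chain, fell at least 11.3-fold and Cav3, a caveolin, 8.75-fold. Acta2, smooth muscle α-actin, fell 3.22-fold and Srf itself 1.94-fold. Medians with glucosamine and IL-1β alone were -0.90 and -1.15. With both agents 13 of 28 genes were lower than with IL-1β alone (14.8% of all genes) and 5 lower than with glucosamine alone (1.13% of all genes).

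Of 31 TGF-β and BMP genes 15 fell and 6 rose. Bmp4, a BMP ligand, gave 492, 492 and 501 on the untreated arrays and 72.8, 71.6, 70.5 and 57.8 under both agents, a fall of 7.29-fold (log2 fold change -2.87 ± 0.11 SE, adjusted p = 1.1e-08). Bmp2, a close relative, gave 43.4, 39.97 and 44.8 on the untreated arrays and 93.98, 86.8, 109 and 111 under both agents and rose 2.34-fold (log2 fold change 1.22 ± 0.11 SE, adjusted p = 5.6e-06). The ligand Bmp3 fell 6.20-fold with 1 of 4 arrays at the floor and Gdf10 at least 5.66-fold, the BMP targets Id1 and Id3 4.52-fold and 3.25-fold, and the ligands Tgfb2 and Tgfb3 3.86-fold and 4.59-fold. With IL-1β alone Bmp2 averaged 375 and Bmp4 148, and with glucosamine alone 57.6 and 77.2.

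Among Wnt, IGF, FGF and VEGF genes 8 of 39 rose and 12 fell, where 16.6% and 14.7% of all genes did. Igfbp3, which binds IGFs, gave 87.2, 80.2 and 77.4 on the untreated arrays and 12.9, 12.5, 8.80 and 7.53 under both agents, a fall of 8.02-fold, and Sfrp2, a secreted Wnt antagonist, gave 275, 207 and 231 on the untreated arrays and 25.7, 24.3, 32.03 and 15.4 under both agents, a fall of 10.01-fold. Igfbp3 averaged 249.9 with IL-1β alone, on the other side of the untreated level. Fgf1 fell at least 7.31-fold and Igf1 at least 4.23-fold. Igfbp5 gave 179, 167 and 177 on the untreated arrays and 255, 232, 242 and 189 under both agents and rose 1.31-fold (adjusted p = 0.038), but the call was lost when any 1 array of the groups other than replicate d of the combination was left out. Vegfa, the main angiogenic factor, rose 3.26-fold, Vegfb 2.77-fold and Vegfc 2.06-fold, in contrast to Vegfd. Without untreated replicate a or b, or without replicate a or c of the combination, 5 rather than 8 of this list rose.

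Immediate early genes and brakes on MAP kinases gave 11 rises (36.7%) and 6 falls (20%) among 30, against 16.6% and 14.7% of all genes. Dusp10, a phosphatase of p38 and JNK, rose 7.71-fold, and the AP-1 subunits Fosl1 and Fosl2 6.74-fold and 3.43-fold. Spry1, an inhibitor of growth factor signalling to ERK, gave 75.96, 77.8 and 79.9 on the untreated arrays and 9.54, 5.78, 8.42 and 8.11 under both agents, a fall of 9.94-fold (log2 fold change -3.31 ± 0.22 SE, adjusted p = 5.9e-07). Fos and Egr1, both quickly induced by serum and growth factors, fell 3.40-fold and 3.08-fold, while Jun rose 2.12-fold.

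**Figure D5:**
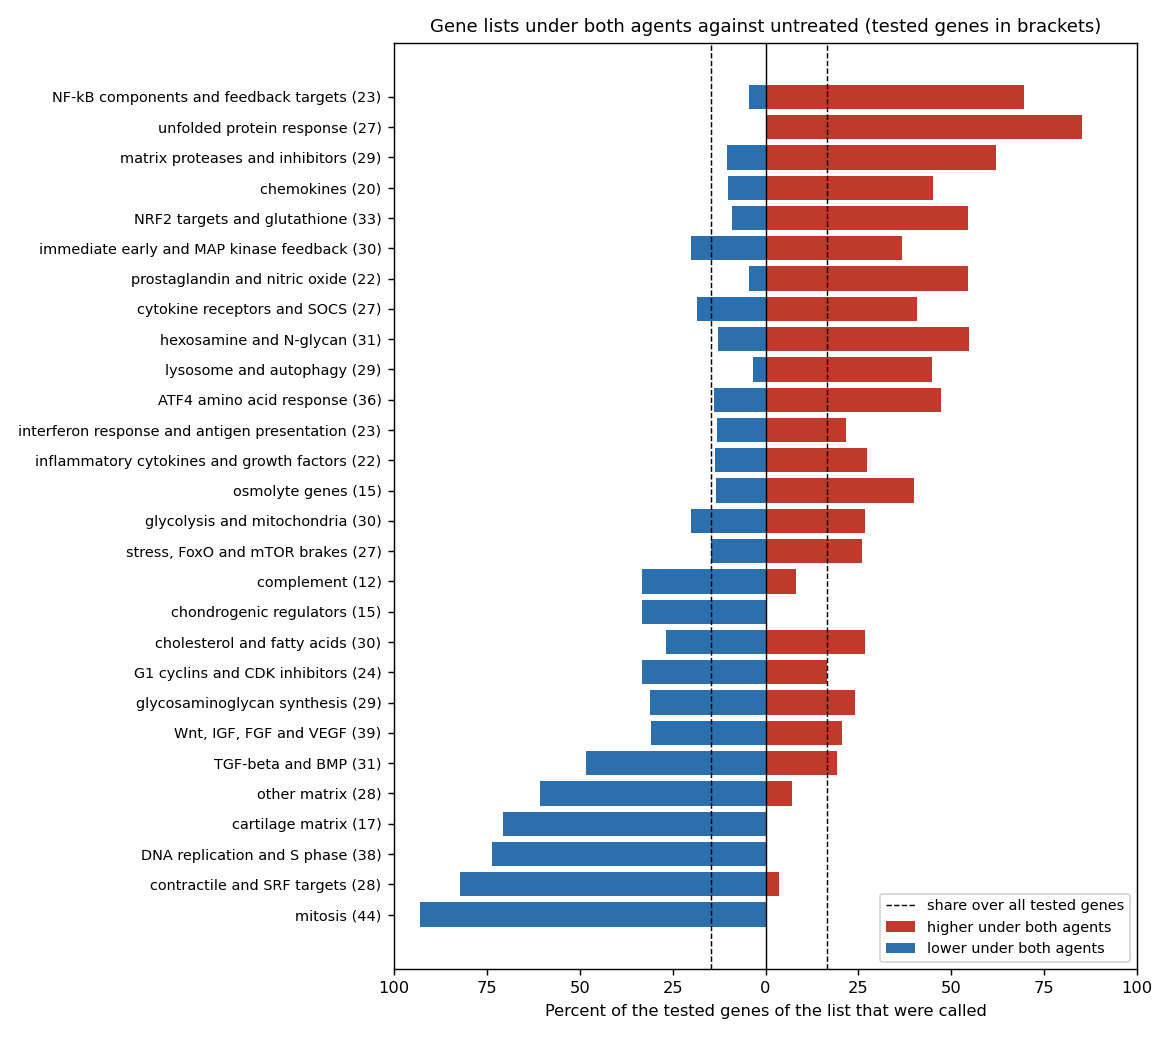
Bars show the percent of tested genes of each list that were called higher (right) or lower (left) with both agents than in untreated cultures, ordered by median log2 fold change, and dashed lines mark 16.6% and 14.7%, the shares over all tested genes. The mitosis list extends farthest to the left and the unfolded protein response list farthest to the right.

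Of 30 genes of glycolysis and mitochondria 8 rose and 6 fell, where 16.6% and 14.7% of all genes did, with falls of 4.98-fold in Eno3, the muscle enolase, and 3.64-fold in Aldoc, the brain aldolase. Pfkm, the muscle phosphofructokinase, fell 2.40-fold by its representative probe set and fell by another, whereas a further one rose (log2 fold change 2.63, adjusted p = 7.7e-04). Of 30 genes of cholesterol and fatty acids 8 rose and 8 fell, 26.7% each, against the same 16.6% and 14.7% of all genes. Abcg1, a cholesterol exporter, gave 12.7, 8.75 and 14.5 on the untreated arrays and 147, 178, 138 and 154 under both agents, a rise of 13.1-fold (log2 fold change 3.71 ± 0.16 SE, adjusted p = 2.2e-08), although 2 other probe sets of it were not called. Fabp4, a fatty acid carrier, rose 6.46-fold, and the desaturase Fads2 and the elongase Elovl6 fell at least 4.83-fold and, with 1 of 4 arrays at the floor, 4.14-fold.

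Lysosome and autophagy genes gave 13 rises and 1 fall among 29, where 16.6% and 14.7% of all genes rose and fell. The list had 8 and 7 rises when untreated replicate a or b was left out. Neu1, the lysosomal sialidase, rose 2.94-fold, the autophagy receptors Sqstm1 (p62) and Optn 2.83-fold and 2.16-fold, and Atp6v1h, a subunit of the proton pump, 1.99-fold. Interferon response and antigen presentation genes gave 5 rises and 3 falls among 23. The immunoproteasome subunit Psmb8 rose 3.01-fold, the peptide transporter Tap1 1.74-fold, and Ifit2, an interferon-induced translation inhibitor, fell 2.23-fold. Of 12 complement genes 4 fell (33.3%) and 1 rose (8.33%), against the same shares over all genes. Among the falls were Clu (clusterin) 1.44-fold, C1qtnf3 2.27-fold and Cd59b 2.26-fold, and Cd55, which speeds decay of the convertases, rose 2.01-fold.

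In 143 genes (1.04%) all 4 arrays under both agents lay above each of the other 9 arrays, and in 256 genes (1.86%) below. The 6 genes named in each direction were chosen among these by their smallest difference from the other groups. Their tests against single agents use the same arrays as that choice and lend no separate support. Serpinb2, with 14.2, 14.3 and 17.3 on the untreated arrays and 322, 382, 361 and 432 under both agents, averaged 178 with glucosamine alone and 186 with IL-1β alone, and both differences were called (adjusted p = 0.0029 and 9.3e-05). Rsad2, the antiviral protein viperin, gave -1.67, -1.05 and -2.25 on the untreated arrays and 57.03, 60.5, 54.1 and 42.8 under both agents, against 8.87 and 9.52 with either agent, and was called against each (adjusted p = 0.0016 and 3.2e-05). Aadat, an aminotransferase of the kynurenine route, gave 69.97, 74.7, 62.6 and 64.8, against 3.81, 3.93 and 2.45 untreated and means of 30.7 and 18.3, but its difference from glucosamine alone was lost without replicate a, b or c of the combination. Ces1c, a carboxylesterase, Prnd, the prion-like protein doppel, and Mcoln2, a lysosomal channel, completed the 6, and Mcoln2 was not called against glucosamine alone (adjusted p = 0.069).

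Below every other array were Selenbp1, Lmcd1, Tnfaip8l3, Cdh3, Fgfrl1 and Vstm4. Lmcd1, a LIM protein that restrains GATA6, gave 589.6, 586 and 605 on the untreated arrays and 31.96, 33.7, 32.4 and 31.8 under both agents, a fall of 18.3-fold (log2 fold change -4.19 ± 0.16 SE, adjusted p = 1.0e-08), against 83.3 and 152 with glucosamine and IL-1β alone. Tnfaip8l3, a carrier of phosphoinositides, gave 103, 90.7 and 99.5 on the untreated arrays and 2.35, 2.96, 3.51 and -2.89 under both agents, against means of 20.8 and 91.3. Cdh3, P-cadherin, fell 9.01-fold, and its difference from glucosamine alone was lost without replicate a or b of the combination or any 1 untreated array. Fgfrl1, a decoy FGF receptor, gave 87.1, 81.98, 65.6 and 15.1 and Vstm4 28.05, 39.2, 27.8 and 4.02, both with replicate d far below the others (log2 fold changes over untreated -2.54 and -2.19, and -1.95 and -1.58 without it), and neither was called against glucosamine alone (adjusted p = 0.32 and 0.46).

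All 7 tested chondrocyte markers of 10 fell, with a summed signal of 9871 to 11115 on the untreated arrays and 5974 to 7126 under both agents. Of 6 fibroblast markers 2 rose and 3 fell (sums 11461 to 12852 and 10601 to 12544). Of 8 tested leukocyte markers 1, Cd68, rose (sums 32.7 to 42.4 and 112 to 253), with a mean of 45.4, an SD of 36.6 and 1 array at the floor under both agents. The defining marker Ptprc had means of 5.09 and 2.71, under the floor. Not all its arrays were, as 2 of 3 untreated arrays and 2 of 4 under both agents lay at or under it. None of 4 endothelial markers was called, 1 of 2 osteoblast markers fell (Ibsp) and, of 4 skeletal muscle markers, Acta1 fell and Myh1 and Des rose. The part of such cells in the results was not tested.

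Of the 162 named genes 53 had 72 other tested probe sets, and the call differed in 32 of them. In 30 the call of the representative was absent, which touched Abcg1, Acan, Cdkn2c, Ces1c, Clu, Col11a1, Csf2, Cxcl3, Eln, Fosl2, Igfbp5, Il1rl1, Mmp2, Myh11, Neu1, Nfkbiz, Pik3ip1, Pth1r, Slc5a3, Sqstm1, Srxn1, Tap1, Timp3 and Tk1. The other 2 were those of Col1a1 and Pfkm.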

How the data were processed

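RNA of each flask was hybridised to 1 Affymetrix rat array, and 7 of 13 arrays enter the main comparison. The deposited intensity values are linear, 1 per probe set and array, which the authors scaled to 100 (the labels name MAS5, the methods Microarray Suite version 5 with Probe Profiler). Some values lie below 0. Groups came from titles, since all descriptions carry 1 text. After removal of 57 control probe sets, signals of 31042 that fell under 5.71, the lower quartile of the whole table, were raised to it, and log2 values of 29263 probe sets above it on at least 1 array were fitted with limma 3.58.1 (R 4.3.3) over all 4 groups, with a variance trend and Benjamini-Hochberg adjustment at 0.05. Of the probe sets 20826 are annotated to 1 gene, 436 to several and 9780 to none. A gene's representative was its probe set with the highest mean log2 signal. Scripts were tested on simulated data. The number of arrays limits the precision.

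Named genes were the 12 largest rises and falls among called genes whose 2 groups did not overlap. They also included up to 4 called members of each of 28 lists (745 of 831 symbols tested) and anchors such as Col2a1 and Mmp13. The last were, in each direction, the 6 genes farthest outside the other 9 arrays, by their smallest difference from the other groups. Members and lists were chosen with earlier results of these data known, and other list members were named after their values were seen. Sox9, Prg4, Gfpt1 and Nos2 are not reported. Promoters are from RefSeq (GRCr8), with motifs searched on both strands. Alternatives changed the floor, filter, scaling, weights, arrays and test.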

Additional observations from a re-analysis of the deposited data

Results flagged for a closer look

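Among the 4 arrays under both agents, 94 results were examined for a replicate whose distance from the other 3 passed Dixon's critical value at the 95% level, and 11 passed. Chance alone passes about 5% of groups. Of these 10 were replicate d. Its 1st percentile of signal was -36.8 against -6.47 to -5.69 on the other arrays, its 75th percentile 119 against 112.6 to 112.9, and 25372 of its probe sets lay above the floor against 22717 to 23068. Bmp4 had 57.8 on replicate d and 70.5 to 72.8 on the others, Gnpda1 298 and 405 to 421, and Fgfrl1 15.1 and 65.6 to 87.1. For 5 genes the other 3 arrays were all under the floor, so that any array above it stood apart after flooring, whatever its distance. On the deposited signals 3 of these (Il1b, Tril and Vegfd, with gaps of 0.569, 0.724 and 0.216 of the range) did not reach the critical value. In 4 of the 5 replicate d was the high array, with 12.7 for Ccl3 (others -2.37 to 0.0427), 10.4 for Il1a (2.09 to 2.86), 5.96 for Il1b (0.334 to 2.76) and 8.14 for Tril (1.32 to 3.20). Replicate c was the high array for Vegfd, at 6.85 against -1.24 to 5.10. The cause was not tested.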

How the results depend on the processing

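Under both agents 6986 probe sets were called (3369 up, 3617 down), and leaving out 1 array of the combination or of the untreated group gave 5317 to 7558, with 2477 to 3813 up and 2838 to 3745 down. The lowest count came without untreated replicate b. Array weights called 12428 (6472 up, 5956 down), and leaving out both replicate d arrays called 9792, 5098 of them up. With 1 probe set per gene 4579 were called, 2435 up and 2144 down, since fewer were tested. The methods' analysis of variance at p under 0.0001, followed by a Tukey test at p under 0.05, called 2731 (1046 up, 1685 down). A fit with the letters as a replicate block called 8846 (4540 up, 4306 down). Same-lettered deviations of the combination and untreated groups correlated at -0.07, 0.18 and -0.14 for a, b and c, so that these letters did not pair the samples. Letter d has no untreated array and was not examined in this way. The log2 signals of replicate d of the combination and of IL-1β alone correlated at 0.928. Under the limma alternatives 144 of 162 named genes kept their direction and call, whereas the methods' test left 39 of the 162 without a call that limma gave. A floor of 32 lost the call of 8. Direction turned for 3 genes that were not called. Adamts5 ran from -0.112 to 0.0328 on the log2 scale when 1 array was left out, above 0 without replicate c of the combination or without untreated replicate c (0.0076). Col1a1 ran from -0.012 to 0.127 in the same way, below 0 without replicate a of the combination, and was at -0.15 with quantile normalization. Il1b was at -0.0345 with the replicate block. The cause was not tested.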
